A study of Mus musculus with 4 samples.

Results

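Interferon-high microglia at 14 days post-injury (dpi) were 117 of the 5426 microglia found in the 14 dpi library, out of 31660 cell barcodes in the series. A barcode was taken as a microglial cell when it had at least 600 genes, at most 10% mitochondrial UMIs (unique molecular identifiers, which count molecules) and at least 1 UMI of 4 or more of 9 microglial markers. The markers were Tmem119, P2ry12, P2ry13, Sall1, Siglech, Gpr34, Olfml3, Sparc and Slc2a5. A microglial cell was called interferon-high when Ifit1, Ifit2, Ifit3, Rsad2, Cxcl10, Isg15, Iigp1 and Usp18 together reached 3000 CPM (counts-per-million of the cell's UMIs). The other 5309 microglia of the same library served for comparison.

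The series holds 4 single-cell RNA libraries of CD45+ immune cells sorted from the spinal cord of C57BL/6 mice operated on at 3 months of age. They came from sham mice after a standard dissociation, from sham mice after a dissociation with actinomycin D (ActD, which blocks transcription), and from mice at 3 dpi and at 14 dpi of a contusion at the thoracic level. In that order they held 60412094, 27447471, 125270696 and 129935880 UMIs in 6827, 2439, 10763 and 11631 barcodes. Each condition was 1 library of pooled cells of both sexes, with no label for the animal a cell came from, so cells are not replicates, no test was run, and every interval below covers counting error only. Per the study both injured libraries were dissociated with ActD, and 10879 of the 11631 barcodes at 14 dpi met the limits on genes and mitochondrial UMIs given above.

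Interferons are secreted proteins that warn cells of viruses, foreign nucleic acid and damage. Type I interferons bind the Ifnar1 and Ifnar2 receptor and type II interferon (Ifng) binds Ifngr1 and Ifngr2, and both act through JAK kinases and STAT factors. Type I signals bring a complex that includes Stat2 and Irf9 to a DNA element called the ISRE, whereas type II signals act mainly on an element called GAS. The genes they switch on block viral replication, sense nucleic acid, present antigen and, through chemokines such as Cxcl10, attract lymphocytes. Microglia are the resident macrophages of the spinal cord and can answer interferons in this way.

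The sequence just upstream of 6 genes is shown because it holds the letters of those elements. Of these, 5 are genes of the rule, while Gbp5, an interferon-induced GTPase, was outside it. Windows of 250 bases before each gene's RefSeq start (GRCm38.p6) were searched on both strands for the ISRE letters GAAANNGAAA or TTTCNNTTTC, the GAS letters TTCNNNGAA, and the NF-kB letters GGGANNTTCC or GGAANNTCCC. The stretches below run 5′ to 3′ on the gene's own strand and end at the base before the start, and capitals mark the matched letters. Cxcl10 is at chr5:92348890-92349119 (minus strand), Ifit1 at chr19:34640769-34640888 (plus), Ifit3 at chr19:34583359-34583528 (plus), Rsad2 at chr12:26456453-26456582 (minus), Isg15 at chr4:156200819-156200918 (minus) and Gbp5 at chr3:142496754-142496933 (plus).
Cxcl10: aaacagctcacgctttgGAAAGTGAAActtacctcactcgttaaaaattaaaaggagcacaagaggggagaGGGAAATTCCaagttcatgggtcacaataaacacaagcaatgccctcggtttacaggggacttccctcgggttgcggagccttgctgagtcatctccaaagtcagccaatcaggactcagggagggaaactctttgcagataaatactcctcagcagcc
Ifit1: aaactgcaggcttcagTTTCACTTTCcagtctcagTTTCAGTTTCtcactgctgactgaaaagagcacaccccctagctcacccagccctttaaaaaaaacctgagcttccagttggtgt
Ifit3: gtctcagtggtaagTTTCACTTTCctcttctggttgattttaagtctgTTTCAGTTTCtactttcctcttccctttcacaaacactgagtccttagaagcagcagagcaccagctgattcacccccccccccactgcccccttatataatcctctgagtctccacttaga
Rsad2: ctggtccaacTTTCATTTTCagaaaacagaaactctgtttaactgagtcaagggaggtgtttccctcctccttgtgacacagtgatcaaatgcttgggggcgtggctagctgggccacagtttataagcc
Isg15: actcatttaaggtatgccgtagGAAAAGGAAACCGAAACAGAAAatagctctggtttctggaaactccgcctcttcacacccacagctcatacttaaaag
Gbp5: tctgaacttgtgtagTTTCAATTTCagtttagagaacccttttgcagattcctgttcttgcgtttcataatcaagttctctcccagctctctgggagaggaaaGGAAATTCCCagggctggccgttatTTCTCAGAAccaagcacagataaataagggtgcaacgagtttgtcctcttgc

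Cxcl10 had an ISRE match 213 to 204 bases before its start and an NF-kB match at 159 to 150. Ifit1 and Ifit3 had a pair of ISRE matches each, Rsad2 had 1, and Isg15 had 3 that overlap one another between bases 78 and 57. Gbp5 had an ISRE match at 165 to 156, an NF-kB match at 77 to 68 and GAS matches at 245 to 237, outside the stretch shown, and at 52 to 44. No ISRE letters lay in the window of Ifit2, where a GAS match at 241 to 233 overlapped an NF-kB match, and the window of Ccl12 had none of the motifs. A match describes the letters in this window and says nothing of whether a factor bound there.

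The members were chosen by the UMIs of these 8 genes, so their levels are given as a description. Their sum ran from 3036 to 47227 CPM in the members, with a median of 5279, while the other microglia had a median of 122 and 1757 of them (33.1%) had none of the 8. The 5 members nearest the threshold had 3036, 3059, 3069, 3071 and 3073 CPM, and the 5 nearest cells outside it had 2976, 2942, 2938, 2865 and 2862. There was no gap at the threshold: 101 microglia lay between 2000 and 3000 CPM, 36 between 3000 and 4000, 33 between 4000 and 6000, 20 between 6000 and 10000, and 28 at 10000 or more. By this score the members are the upper end of a continuous range.

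**Figure D1:**
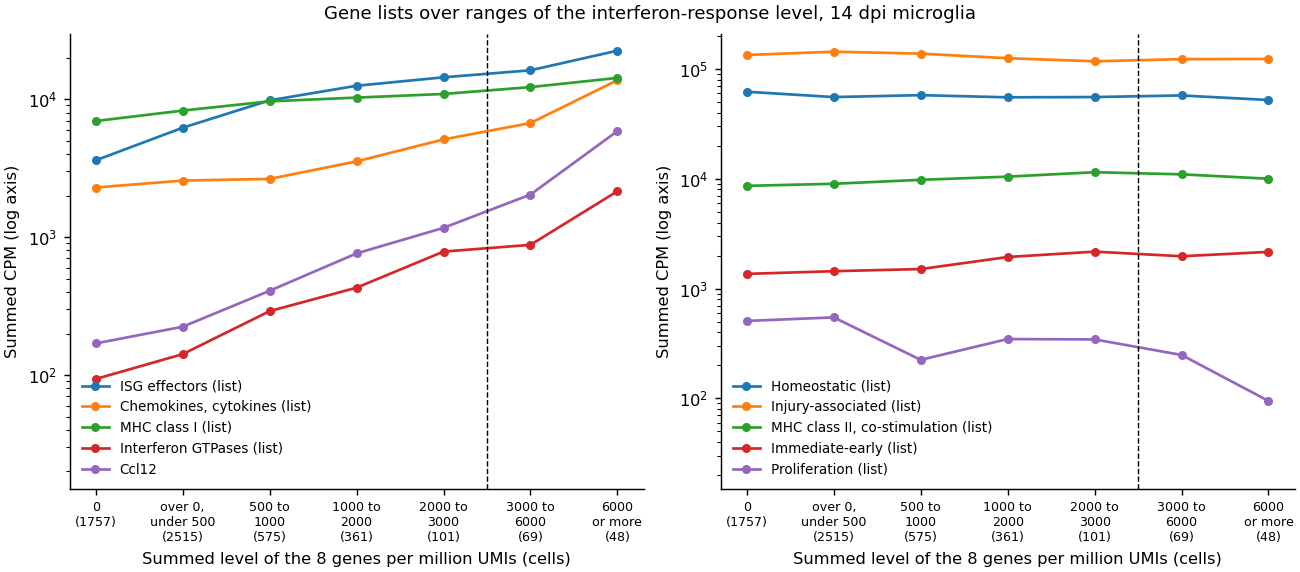
Summed CPM (log axis) of gene lists and of Ccl12 in 7 ranges of the score, the summed CPM of the 8 genes in a cell, with the number of 14 dpi microglia in each range in brackets and a dashed line at 3000 CPM. On the left the effector, chemokine, class I and GTPase lists and Ccl12 are highest at 6000 CPM or more, and on the right the homeostatic, injury-associated and class II lists are nearly flat. From the first range to the last, the immediate-early list goes from 1361 to 2160 CPM and the proliferation list from 507 to 94.7.

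In the members' summed UMIs, Cxcl10, a chemokine for T and NK cells, stood at 2460.1 CPM against 11.98 in the other microglia. Ifit3, an RNA-binding antiviral protein, stood at 1307 against 64.2, and Isg15, a ubiquitin-like protein, at 1171 against 119. Cxcl10 made up 31.9% of the members' UMIs of the 8 genes but 3.67% of those of the other microglia, where Isg15 made up 36.6%. The remaining genes were Ifit2 (962 against 45.7 CPM), Rsad2 (699 against 19.9), which makes an antiviral nucleotide, Ifit1 (467 against 22.4), Usp18 (338 against 35.8), which removes Isg15 from proteins, and Iigp1 (299 against 6.57), an immunity-related GTPase. The ratio was thus steepest for Cxcl10 and Iigp1 and shallowest for Isg15 and Usp18.

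The members did not all carry the 8 genes in the same proportion. All 8 were detected in 53 members (45.3%) and in 20 of the other microglia (0.377%), and 4 members had 4 genes or fewer. Cxcl10 had the most UMIs of the 8 in 48 members, Ifit3 in 29, Isg15 in 27, Ifit2 in 11 and Iigp1 in 2, with 3 ties among them. In single members Cxcl10 ran from 0 to 25021 CPM, with a median of 781. The 10 members with the most UMIs of the list held 29.4% of them, and the 10 with the most Cxcl10 held 42.1% of it.

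**Figure D2:**
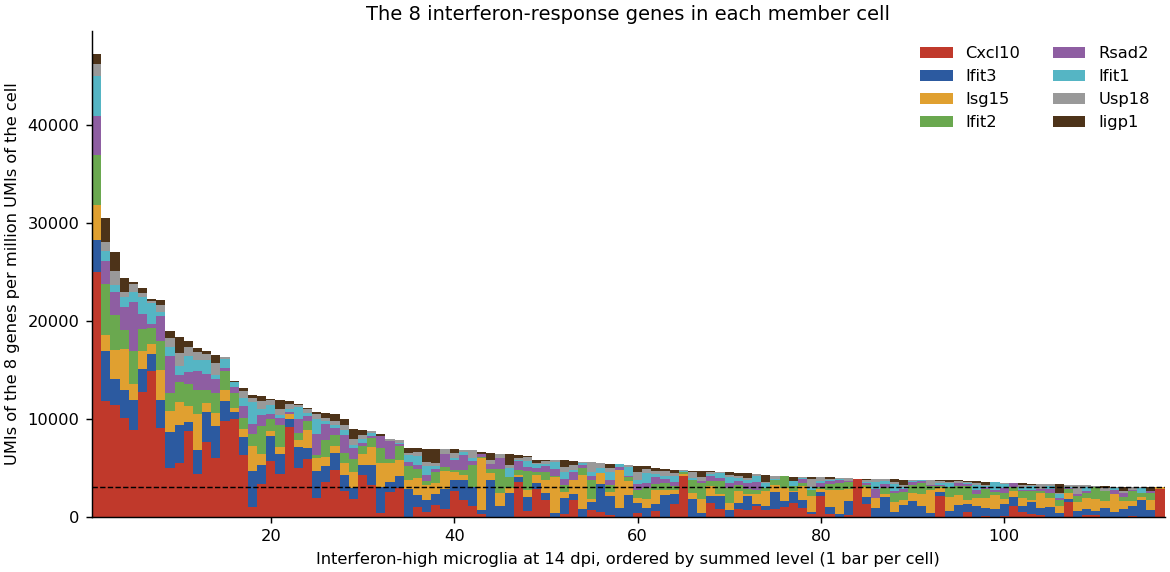
Stacked CPM of the 8 genes of the rule in each of the 117 interferon-high microglia at 14 dpi, 1 bar per cell, ordered by their sum, with a dashed line at the 3000 CPM threshold. The sums run from 47227 down to 3036 CPM, and Cxcl10 fills much of the highest bars but little of many others.

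Choosing the cells by 7 of the genes left the remaining gene free of the choice. With Cxcl10 left out, 105 cells passed, and they held Cxcl10 at 2489 CPM against 18.6, with a UMI in 68.6% of cells against 5.49%. With Ifit3 left out, 85 cells passed, and Ifit3 stood at 1359 against 70.4 CPM. With Isg15 left out, 79 cells passed, and Isg15 stood at 1115 against 127 CPM. The 8 genes were put together because they are high in the same cells, so these values are a description as well.

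Free RNA was gauged in B-cell-like cells of the library, 0.763% of which reached 3000 CPM themselves, after each cell was thinned to 2000 UMIs. Cxcl10 was found in 58.1% of the members, in 1.18% of the other microglia and in 1.21% of the B-cell-like cells. Ifit3 was found in 96 of 117 members and in 527 of 5270 and 23 of 496 cells of the other sets, and Gbp5 in 28.2%, 1.67% and 1.61% in the same order. Ccl12, a chemokine outside the rule, was found in 87, 1265 and 20 cells of the same sets. Median depths before thinning were 13154, 12346 and 3839 UMIs, and thinning left out 39 of the other microglia, 28 B-cell-like cells and none of the members.

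The members carried the microglial markers that were part of the rule. Tmem119 stood at 258 CPM in the members and 267 in the others, Olfml3 at 672 and 750, P2ry12 at 274 and 315, P2ry13 at 116 and 104, Siglech at 254 and 288, and Sparc at 1384 and 1629. Sall1, a transcription factor of microglial identity, was at 59.4 and 79.6 CPM, Slc2a5 at 16.6 and 22.7, and the lipid receptor Gpr34 at 243 and 429. In a stricter class check, which asked microglial markers to outnumber those of every other class by at least 2, 67 members (57.3%) and 3525 others (66.4%) were microglia, and 41 members (35.0%) fell in no class. The class check called 5 members T/NK-cell-like, 3 monocyte-like and 1 border-macrophage-like, so results below are also given for the 67 strict cells where they differ.

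Markers of some other cell types also differed. The 9 monocyte markers summed to 1344 CPM against 697, led by Plac8 (617 against 190) and Ly6c2 (408 against 134), with Chil3 at 24.6 against 127. The 5 members with the most Plac8 held 57.1% of it, and those with the most Ly6c2 held 67.4%. In the 67 strict cells Plac8 was at 167 against 82.0 CPM and Ly6c2 at 62.4 against 43.6. T/NK markers, with Trbc2 the most abundant (57.7 against 33.7), summed to 282 against 192 CPM and B-cell markers to 183 against 231, while neutrophil markers, with S100a9 the most abundant, summed to 6410.1 against 11124. At least 3 markers of 1 lymphoid, monocyte, border macrophage or dendritic list were found in 46.2% of the members and in 28.8% of the others, while a doublet score marked 11.97% (95% interval 6.70 to 19.3%) and 14.1% (13.2 to 15.1%). Itgam together with a lymphoid marker was found in 12.8% of the members and in 9.74% of the others. The 20 genes with the largest ratios, described below, had a median log2 ratio of 3.69 in all members. The median was 4.83 without the cells that had at least 3 markers of 1 of those lists and 4.46 without cells marked as doublets. These genes were chosen for their ratios in the same members, and 14 passed the filter on low values only through them. Their values in subsets of the members are therefore a description, and the part of mixed cells was not tested.

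Of 5294 genes outside the rule with a mean of at least 20 CPM, 241 (4.55%) were higher by 2-fold or more in the members and 27 (0.51%) were lower, with an interval clear of equality. The median log2 ratio over all of them was -0.05. A gene could pass the filter through the members alone, which applied to 84 of the 241, and with 20 CPM asked over all microglia together 157 genes (2.95%) were higher and 39 (0.732%) lower. A TMM or DESeq2 scaling moved every log2 ratio by 0.059 or 0.062. Since these genes were read in the cells the rule chose, the counts describe what accompanies the 8 genes and test nothing.

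The 20 genes with the largest ratios were mostly interferon-induced antiviral genes, with a few immune receptors and chemokines among them. Of the 20, 14 passed the filter on low values only through the members, and 6 (Mx1, Cd69, Gbp2, Ccl12, Ccl2 and Ifi213) reached 20 CPM over all microglia. Cd40, a costimulatory receptor, stood at 61.1 CPM in the members against 2.24, a log2 ratio of 4.77 (95% interval 4.41 to 5.12), and was found in 31.6% of members against 2.52%. Antiviral genes were Ifit3b (288 against 13.3), Oasl1 (141 against 7.17), Cmpk2 (151 against 8.36), Mx1 (244 against 18.9) and Ifit1bl1 (39.4 against 3.40). DNA-sensor family genes were Ifi205 (101 against 4.48), Ifi208 (102 against 6.23) and Ifi213 (187 against 19.9). GTPases were Gbp5 (167 against 7.96), Gbp2 (208 against 16.8), Gbp4 (45.7 against 4.89), Ifi47 (147 against 15.3) and Gm4951 (106 against 8.16). These 20 genes had log2 ratios from 3.23 to 4.77 with a median of 3.69, and from 3.13 to 5.08 with a median of 3.76 in the 67 strict cells, where all 20 again passed 2-fold.

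The remaining genes of the 20 were chemokines, other signalling proteins and 1 metabolic enzyme. Ccl12, a monocyte chemokine, stood at 3537 against 286 CPM (log2 3.63, interval 3.59 to 3.67) and was the most abundant of the 20, with a UMI in 86.3% of members and 53.3% of the others. Ccl2, its relative, stood at 462 against 43.6, and Cd69, an early activation marker of leukocytes, at 250.3 against 19.5. Cd69 reached 162 against 6.16 CPM in the strict cells. Acod1, which makes itaconate, stood at 65.7 against 4.07 and the death ligand Tnfsf10 at 67.4 against 5.64. Cxcl9, another chemokine for T cells, stood at 159 against 16.1, but 20 members held all of it and 5 held 72.7%. Ccl12 was thus found across most members and Cxcl9 in few.

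**Figure D3:**
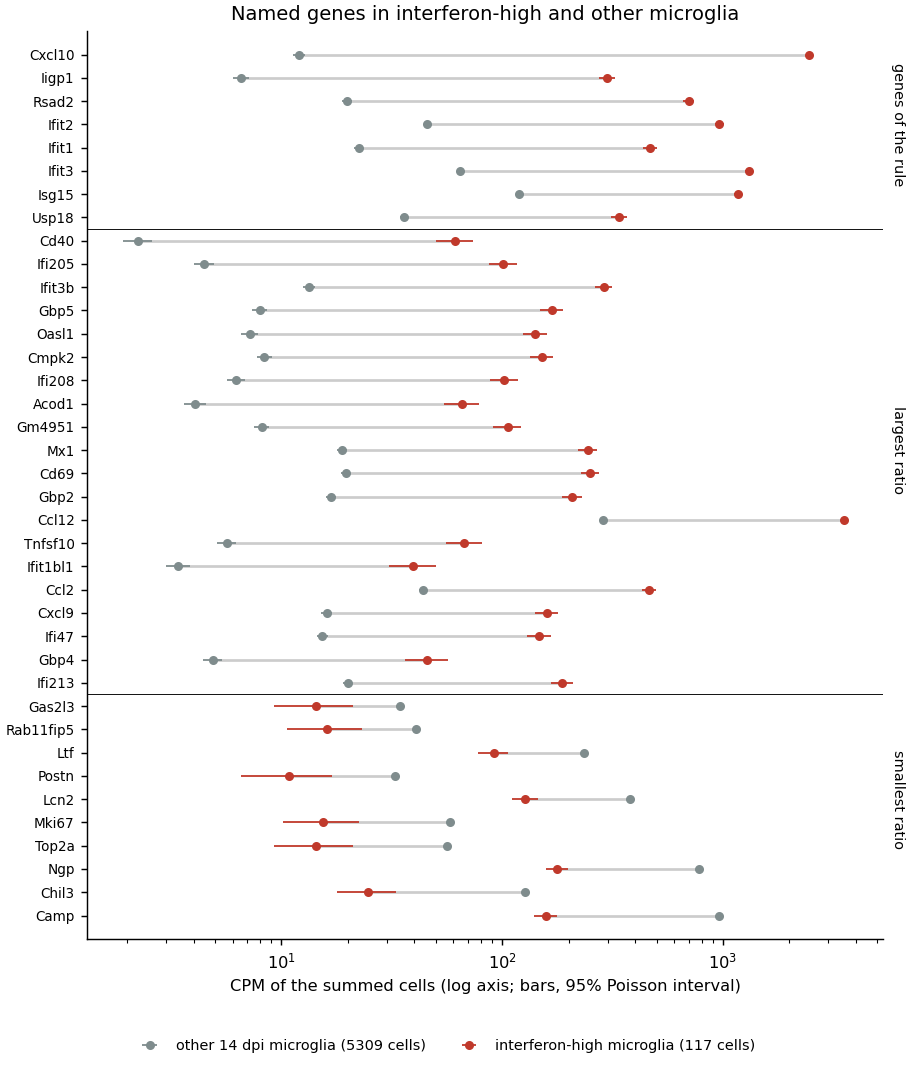
CPM (log axis) of the genes of the rule, of the 20 largest ratios and of the 10 smallest, in the summed 117 interferon-high (red) and 5309 other microglia (grey) at 14 dpi, with 95% Poisson intervals. In the upper blocks every red point lies to the right of its grey one, with Ccl12 highest at 3537 CPM, and in the lowest block every one lies to the left.

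The 10 genes with the smallest ratios were mainly neutrophil and cell-cycle genes. Neutrophil granule genes were Camp (157 against 955 CPM), Ngp (178 against 783), Lcn2 (127 against 381) and Ltf (91.4 against 235). After thinning to 2000 UMIs Camp was found in 11.1% of members, 14.3% of the others and 13.3% of B-cell-like cells. Ngp was found in 11.1%, 12.9% and 12.7%, so both sets of microglia had shares near those of the B-cell-like cells. The class check called 0 members and 103 of the others neutrophil-like, and what made the CPM differ was not tested. For Camp 5 members held 66.9% of the members' UMIs. Chil3 stood at 24.6 against 127, Mki67, a proliferation marker, at 15.4 against 57.8, and the DNA-unwinding enzyme Top2a at 14.3 against 56.0. Mki67 was found in 8.55% of members and 8.74% of the others, and 1 member held 51.9% of it. Postn (10.9 against 32.8), Rab11fip5 (16.001 against 40.8) and Gas2l3 (14.3 against 34.6) were the remaining genes.

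Few UMIs of the interferons themselves were found in the members. Ifnb1 gave 1 UMI in the members and 0 in the others. Ifng gave 14 UMIs in 4 members (3.42%), 1 of which held 78.6%, and 257 UMIs in 113 of the others (2.13%), and 1 UMI in the 67 strict cells. T/NK-like cells of the library held Ifng at 64.1 CPM. The receptors stood at like levels in both sets of microglia, with Ifnar1 at 61.7 and 64.9 CPM, Ifnar2 at 176 and 173, Ifngr1 at 307 and 339, and Ifngr2 at 181 and 190. Their log2 ratios lay between -0.14 and 0.03.

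Signalling genes differed unevenly. Of 20 genes of interferon signalling 6 were higher by 2-fold or more and none lower, beside 4.55% of all genes compared, with a median log2 ratio of 0.41, and 4 of 18 were, beside 2.95% of all genes, with 20 CPM asked over all microglia. Among transcription factors Irf7 stood at 419 against 77.1 CPM, Stat2 at 143 against 32.8 and Irf1 at 88.6 against 25.6. Irf9, the DNA-binding partner of Stat2, was at 76.6 against 55.2, Irf8, which microglia need to develop, at 510 against 463, and Irf3 at 25.7 against 33.5. The feedback inhibitors Socs1 (64.0 against 7.59) and Socs3 (52.6 against 18.4) passed the filter on low values only through the members, and the phosphatase Ptpn6 was at 278 against 232.

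Nucleic acid sensors showed a like split. Of 14 compared 9 were higher by 2-fold or more and none lower (median 1.29), beside 4.55% of all genes compared, and 8 of 13, beside 2.95%, with 20 CPM asked over all microglia. The cytosolic RNA sensors Ifih1 (251 against 39.7 CPM) and Ddx58 (182 against 38.2), the sensor of left-handed nucleic acid Zbp1 (249 against 50.9) and the endosomal receptor Tlr3 (117 against 28.0) were among the 9. Tmem173 (STING), which relays cytosolic DNA signals, was at 189 against 132, Tlr7 at 109 against 85.7, the DNA sensor Aim2 at 115 against 62.8, the kinase Tbk1 at 45.7 against 37.1, and Unc93b1, which carries endosomal receptors, at 669 against 629.

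Of 51 other interferon-induced effector genes 47 were higher by 2-fold or more and none lower, with a median log2 ratio of 1.83 beside -0.05 and 4.55% higher for all genes compared. With 20 CPM asked over all microglia, 38 of 42 were, beside 2.95%. Slfn5 stood at 890 against 164 CPM, Ifi204 at 750 against 173, Isg20, an RNA exonuclease, at 184 against 20.5, and Samhd1, which depletes nucleotides, at 371 against 109. Ratios were smaller for abundant genes that were also high outside the members, with Ly6e at 1913 against 1243, Lgals3bp at 1022 against 672, Ifi27l2a at 1252 against 672, Bst2 (tetherin) at 1131 against 553 and Ifitm3 at 1818 against 647. Together the effectors made 18644 CPM in the members and 6564 in the others. Interferon-induced GTPases, which attack the vacuoles of intracellular microbes, made 1378 against 179 CPM, and all 10 that were compared passed 2-fold, among them Gbp7 (200.01 against 24.1), Igtp (171 against 29.0), Irgm1 (151 against 33.9) and Irgm2 (57.7 against 15.5). Only 4 of these 10 reached 20 CPM over all microglia, and those 4 passed 2-fold as well.

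**Figure D4:**
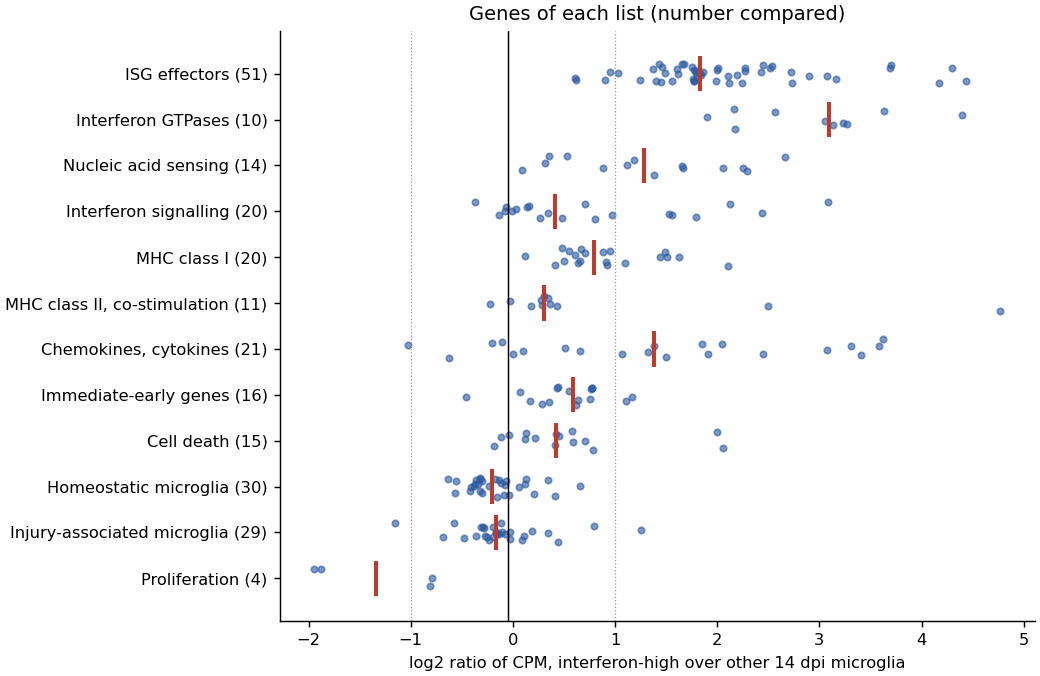
Log2 ratio of CPM, interferon-high over other microglia at 14 dpi, for every compared gene of 12 lists (points) with the list's median (red bars), the median of all genes (black line) and 2-fold either way (dotted lines). Medians run from 3.10 for the GTPases to -1.34 for the 4 proliferation genes, beside -0.05 for all genes compared.

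Antigen presentation was higher for class I genes and differed little for class II. All 20 class I genes had a ratio above 0 (median 0.80, beside -0.05 for all genes compared) and 6 passed 2-fold, beside 4.55% of all genes. The peptide transporter Tap1 stood at 182 against 64.8 CPM, H2-Q6 at 93.7 against 21.8, H2-Q7 at 245 against 79.7, H2-K1 at 1926 against 1043, H2-D1 at 2919 against 1788 and the light chain B2m at 4458 against 3345. The proteasome activator Psme1 was at 539 against 381 and the peptide trimmer Erap1 at 37.1 against 34.4. Of 11 class II and costimulatory genes 2 passed 2-fold upwards, beside the same 4.55%, Cd40 and the inhibitory ligand Cd274 (95.4 against 17.0), and none did with 20 CPM asked over all microglia. Cd74, the class II chaperone, stood at 926 against 719 and H2-Ab1 at 318 against 257, where 1 member held 26.4% of it. Ctss, the protease that trims Cd74, stood at 8166 against 7231, and the peptide-loading genes H2-DMa and H2-DMb1 at 207 against 242 and 111 against 114. The class II median was 0.31, and it was 0.95 without cells marked as doublets and -0.35 for cells above 5000 CPM.

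Chemokines and cytokines had 13 of 21 genes higher by 2-fold or more and 1 lower, beside 4.55% and 0.51% of all genes compared, with a median of 1.38, and 8 of 15 with 20 CPM asked over all microglia. Ccl5, a T-cell attractant, stood at 1269 against 233 CPM, Ccl4 at 1634 against 452, Ccl3 at 649.8 against 311 and the cytokine Il1b at 148 against 52.6. Ccl5 stood at 1287 against 153 in the strict cells. Cxcl13, which attracts B cells, was at 117 against 13.8, but 5 members held 88.7% of it. Cxcl14 was the gene lower by 2-fold, at 48.0 against 98.2, and Ccl6 stood at 213 against 328.

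Lists of the general state of microglia are given beside the median of -0.05 and the 4.55% higher and 0.51% lower of all genes compared. None of 30 homeostatic genes passed 2-fold either way (median -0.21), a share near that of all genes, with the fractalkine receptor Cx3cr1 at 1555 against 1917 CPM, the protease inhibitor Cst3 at 17714 against 18575, and the complement genes C1qa at 10682 against 9835, C1qb at 8262 against 7908 and C1qc at 5544 against 5710. At the ends of this list stood Cd164 (128 against 81.3), Adora3 (37.7 against 28.5), Golm1 (189 against 293) and Gpr183 (90.9 against 135). Of 29 injury-associated genes 1 was higher and 1 lower (median -0.16), also near the share of all genes. The higher one was Ch25h, an interferon-inducible cholesterol hydroxylase, at 280.0 against 117, and the lower one Ank, at 50.3 against 112. Apoe, the lipid carrier, stood at 64185 against 77654, the growth factor Igf1 at 126 against 203, and Spp1 (osteopontin) at 5011 against 3683. The lysosomal protease Ctsd was at 11169 against 12777, the ferritin chain Fth1 at 9987 against 9400, the signalling adaptor Tyrobp at 4172 against 4906 and the oxidase subunit Cybb at 434 against 251. Immediate-early genes, which respond to dissociation, had 15 of 16 ratios above 0 (median 0.58) and 2 past 2-fold, Ier3 at 47.4 against 21.3 and Dusp1 at 79.4 against 37.1. Junb stood at 289 against 169, Nfkbia at 271 against 161, Jund at 166 against 148, Rhob at 131 against 180 and Atf3 at 71.4 against 68.5. Of the proliferation list 4 of 20 genes were compared, 2 of which, Mki67 and Top2a, were lower by 2-fold, and Stmn1 stood at 56.6 against 98.7 and Pclaf at 19.4 against 34.6.

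The levels were followed along the whole score in 7 ranges of cells. The effector list made 3601 CPM in the 1757 cells at 0, 12501 at 1000 to under 2000 CPM and 22456 in the 48 cells at 6000 or more. Ifi27l2a was at its full level below the threshold, with 299 CPM in the cells at 0, 1353 at 1000 to under 2000 and 1292 at 6000 or more. Ccl12 stood at 170 CPM in the cells at 0, 2034 at 3000 to under 6000 and 5863 at 6000 or more, and Cd40 at 0.891, 17.9 and 128. Cd69 likewise stood at 9.12, 70.5 and 529 CPM at the same points. Homeostatic P2ry12 was at 406 CPM in the cells at 0, between 276 and 324 in the 5 ranges from there to 6000 and at 197 in the highest range, with no steady course between. Cx3cr1 was at 2093, between 1714 and 1938, and at 1309. The class II and costimulatory sum was nearly flat, but within it Cd74 was not. Cd74 stood at 350 CPM in the cells at 0, 1527 at 2000 to under 3000 and 651 at 6000 or more.

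Members in which Cxcl10 led differed from those in which another of the 8 genes led, a split made on the rule's own values. The 48 Cxcl10-led cells had Ccl12 at 4878 CPM against 2222 in the other 69, Ccl2 at 691 against 238, Ccl5 at 1756 against 792 and Gbp5 at 271 against 65.7. Cd69 was found in 89.6% of the Cxcl10-led cells against 26.1% (446 against 58.9 CPM) and Cd40 in 66.7% against 7.25% (110 against 13.6 CPM). The cytokine Tnf stood at 36.9 against 1.13 CPM. Bst2 stood at 1034 against 1226, and Ifi27l2a was lower in the Cxcl10-led cells, at 795 against 1700. Other effectors were higher in the Cxcl10-led cells, with Mx1 at 292 against 197 and Ifit3b at 354 against 223, and the effector list as a whole stood at 18225 against 19056. Border macrophage markers summed to 411 CPM against 223, T/NK markers to 331 against 234 and B-cell markers to 231 against 137. Oligodendrocyte and endothelial markers were also higher, and neutrophil (5523 against 7280), monocyte and dendritic markers were lower. The rule's 9 microglial markers summed to 2738 against 3804, P2ry12 stood at 197 against 349, and proliferation genes summed to 305 against 73.6. Within the Cxcl10-led cells 1 cell held 63.6% of the Mki67 UMIs and 1 cell held 56% of the Top2a UMIs, so this sum rests on few cells. The Cxcl10-led cells also had the higher scores, 10818 against 4648 CPM in sum. The score and the leading gene cannot be told apart in these differences, and the part of other cell types was not tested.

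The 27 Isg15-led cells had Ccl12 at 1581 CPM, Ifi27l2a at 2319, Plac8 at 2005 and Ly6c2 at 1051, and the monocyte markers Plac8 (276 against 951) and Ly6c2 (203 against 609) were lower in the Cxcl10-led cells than in all cells led by another gene. The 29 Ifit3-led cells had Ccl12 at 3143 CPM and P2ry12 at 374. Whether the split would hold without cells that carry monocyte markers was not tested.

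Genes higher in the members lay near one another on the genome. Of the 241 genes 34.02% had another of the 241 within 100 kb, against 5.72% of the 5053 genes compared that were not among them. In all, 10 clusters held 48 of the genes (coordinates of mm10, from GENCODE M21). The largest held 11 of 11 compared genes of the Ifi200 family on chr1:173468485-174031810, among them Ifi205, Ifi204 and Mndal. Since 84 of the 241 passed the filter on low values only through the members, a full count such as this follows in part from the filter. Clusters are not given for the 157 genes that were higher with 20 CPM asked over all microglia. Others were 6 Slfn genes on chr11:82951349-83190216, 5 genes from Irgm1 to Ifi47 on chr11:48861968-49096974, and Gbp5, Gbp7, Gbp3 and Gbp2 on chr3:142493978-142638008. Members of these families are close copies, so the split of reads between neighbours is uncertain.

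The promoter letters were counted over the same gene sets. ISRE letters lay in 2.98% of all 32851 windows. Gene sets were counted by gene, with a match in any window of the gene, so their shares are not on the same footing as the share of windows. ISRE letters were held by 3.13% of the 4025 genes under 2-fold that had a window. Of the 241 higher genes 184 had a window, and 23.4% of those held them. In the same order GAS letters lay in 7.02%, 6.43% and 12.5%, and NF-kB letters in 1.21%, 1.54% and 4.35%. Of the 20 genes with the largest ratios 14 had a window and 7 of those held ISRE letters, and of 17 chemokine and cytokine genes with a window 2 did.

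The rule was applied to the microglia of every library to place the 14 dpi share. It took 2.16% at 14 dpi (95% interval 1.79 to 2.58%), 1.71% (62 of 3620, 1.32 to 2.19%) in the sham library of standard dissociation, 0.817% (15 of 1835, 0.458 to 1.34%) in the sham library with ActD and 0.739% (12 of 1624, 0.382 to 1.29%) at 3 dpi. Median depth of the microglia was 12363, 8105, 9687 and 24094 UMIs in the same order. Thinned to 2000 UMIs, the shares were 3.23%, 2.11%, 1.41% and 0.991%, with the same order. The intervals of 14 dpi and of the standard sham library overlapped before thinning, and between them injury, dissociation and library cannot be told apart. The sham library with ActD had the dissociation of 14 dpi, but with 1 library of each injury and library cannot be told apart. Between 17 and 36 barcodes of the 14 dpi library recurred in another library, none of them a member.

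**Figure D5:**
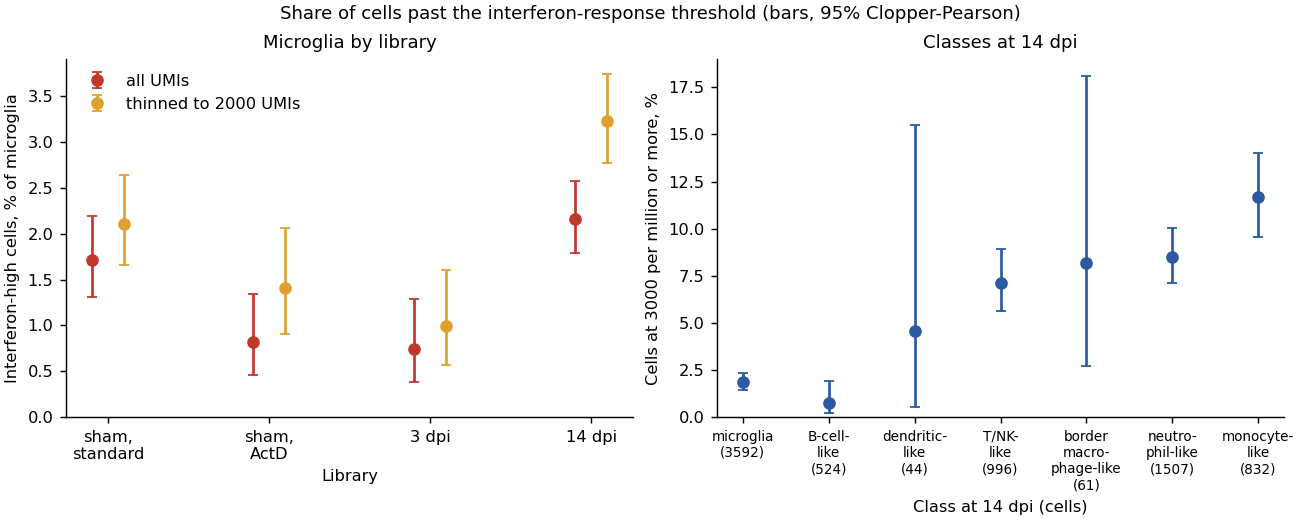
Share of microglia at 3000 CPM or more in each library, as measured and after thinning to 2000 UMIs (left), and share of cells of each class at that level in the 14 dpi library (right), in percent with 95% Clopper-Pearson intervals. The 14 dpi library is highest on the left, at 2.16% and 3.23%, and on the right microglia stand at 1.87% and monocyte-like cells at 11.7%.

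Cells taken by the same rule in the other libraries also carried many of these genes. The mix of the 8 genes differed, since in the standard sham library Cxcl10 stood at 4659 CPM but Ifit3 at 421 and Iigp1 at 12.3, against 2460.1, 1307 and 299 at 14 dpi. Of the 20 genes with the largest ratios at 14 dpi, 15 were higher than in other microglia with an interval clear of equality in the standard sham library, 19 in the sham library with ActD and 15 at 3 dpi. The share of all genes clear of equality in these libraries is not given here, so the counts have no general rate beside them. The median log2 ratio of all genes compared was 0.016, 0.0062 and 0.083 in the same order. Mx1 stood at 100.1, 357 and 390.1 CPM in these cells in the same order, beside 244 at 14 dpi, and at 2.78, 18.5 and 4.39 in the other microglia. Ccl12 stood at 2555, 4376 and 1572 CPM, beside 3537 at 14 dpi. Gbp5 was at 51.1, 129.5 and 91.8 CPM beside 167, and Cd40 at 8.17, 71.5 and 17.2 beside 61.1, from 4, 16 and 3 UMIs. In the other microglia of these libraries Gbp5 was at 46.6, 17.1 and 2.67 CPM and Cd40 at 5.15, 1.69 and 5.17. The ratio was not clear of equality for Gbp5 or Cd40 in the standard sham library, nor for Cd40 at 3 dpi. The effector median was 1.85, 2.59 and 2.94 on the log2 scale beside 1.83 at 14 dpi.

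Most microglia of the 14 dpi library could be assigned a sex by Xist and Y-linked genes, but 772 carried both, 19 of them members, and 828 carried neither, 17 of them members. The rule took 52 of 2033 female microglia, or 2.56% (1.92 to 3.34%), and 29 of 1793 male microglia, or 1.62% (1.09 to 2.31%), and the intervals overlapped. The 8 genes summed to 642 CPM in female and 298 in male microglia. Which animals of each sex went into this library is not given in the sources used here, so sex and animal cannot be told apart.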

How the data were processed

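The deposited matrices hold raw UMI counts per gene and barcode, which the authors made with Cell Ranger on the mm10 genome (version 3.1.0 in the matrix headers of 14 dpi and of the ActD sham, 3.0.1 in the other 2), from 10x 3′ libraries. No column of another series was present. The members, gene lists and named-gene rule were chosen with earlier results of these data known.

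UMIs were summed over the members and over the other 14 dpi microglia and divided by all UMIs of each set to give CPM. Log2 ratios had 0.5 UMIs added to each sum, and 95% intervals came from the exact conditional Poisson distribution, with Clopper-Pearson intervals for shares. They cover counting error only. Genes needed a mean of the 2 CPM of at least 20. On simulated Poisson counts, the model the intervals assume, 95.3% of the intervals over 5344 genes held the true ratio. That checks the calculation only, since the simulation held no differences between cells. Near-identical gene copies can share reads. A few measured genes are not reported here.

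The genes named were the 8 of the rule, the 9 markers, the 20 largest and 10 smallest ratios, and in each of the 12 functional lists the 4 with the most UMIs and the 2 largest and 2 smallest ratios, besides interferon and receptor genes. Lists of other cell classes are given by their sums and a few genes, and others in the text were chosen after their values were seen. Doublets were not removed from the members. The 1047 cells (9.30%) with the highest Scrublet scores (scanpy 1.11.5) were removed as an alternative. Other alternatives were thresholds of 2000 and 5000 CPM, thinning, single score genes left out, other filters on low CPM, and, chosen after seeing the data, cells without markers of other classes, a filter over all microglia and cells by leading gene. Python 3.11.15, numpy 2.4.6, scipy 1.17.1, edgeR 4.0.16 and DESeq2 1.42.0 (size factors only) were used.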

Additional observations from a re-analysis of the deposited data

Results flagged for a closer look

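Some named genes stood on opposite sides of equality in the interferon-high cells of 14 dpi and of another library, with both counting intervals clear of it. Each library is 1 sample and the difference was not tested. Values are log2 ratios of CPM, interferon-high over other microglia of the same library.

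Cd69, the activation marker, had a ratio of -1.44 in the standard sham library and 3.68 at 14 dpi, beside 4.41 in the sham library with ActD and 3.52 at 3 dpi. Ccl5 had -2.62 at 3 dpi, from 1 UMI in 12 cells, and 2.45 at 14 dpi, beside 4.64 in the sham library with ActD and 0.26 in the standard sham library. Cd74, the class II chaperone, had -0.85 in the standard sham library and 0.37 at 14 dpi, beside 2.82 in the sham library with ActD and 1.68 at 3 dpi, where the class II and costimulatory medians were 2.81 and 1.68. The cell-cycle gene Mki67 had 0.71 in the standard sham library and -1.88 at 14 dpi, beside -0.42 at 3 dpi and 0 UMIs in the interferon-high cells of the sham library with ActD. Top2a had 0.57 at 3 dpi and -1.94 at 14 dpi, beside 0.32 in the standard sham library and -3.54, from 1 UMI, in the sham library with ActD. At 14 dpi 1 member held 51.9% and 56.0% of their UMIs.

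Lipid and injury genes also stood apart. Apoe had 0.10 in the standard sham library, 1.35 in the sham library with ActD and 0.28 at 3 dpi, beside -0.27 at 14 dpi. Lpl, a lipase, had 0.98 in the standard sham library and -0.58 at 14 dpi, beside -0.71 in the sham library with ActD and -0.30 at 3 dpi. Spp1 had -1.60 at 3 dpi, 1.80 in the standard sham library and 0.44 at 14 dpi, and -3.84 in the sham library with ActD, where its 15 interferon-high cells had 0 UMIs, so that the size of this value depends on the 0.5 UMIs added. The homeostatic receptor P2ry12 had 1.51 at 3 dpi and -0.20 at 14 dpi, beside -0.14 in the standard sham library and -0.87 in the sham library with ActD.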

How the results depend on the processing

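The score has no gap, so the share of interferon-high cells at 14 dpi moved with its definition: 4.02% at 2000 CPM, 1.12% at 5000, 3.23% after thinning to 2000 UMIs, 1.46% without Isg15 in the score and 1.64% without cells holding at least 3 markers of another class. The shares elsewhere were 3.09% and 0.856% (standard sham), 1.96% and 0.381% (sham with ActD) and 1.23% and 0.308% (3 dpi) at 2000 and 5000 CPM, and 1.41% in the sham library with ActD after thinning.

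Higher genes numbered 368 with a mean of at least 5 CPM, 135 with at least 50 and 157 with 20 CPM over all microglia. Lower genes numbered 183 and 11 at the first 2 of these filters, 17 and 91 at 2000 and 5000 CPM, 15 after thinning, 43 without Isg15 and 70 without cells holding other markers. The class II and costimulatory median was -0.35 at 5000 CPM, 0.95 without doublets and -0.38 in Cxcl10-led cells. The proliferation median, over few genes, was -2.76 at 5000 CPM, -3.09 without cells with Itgam and a lymphoid marker, -3.21 without Cxcl10 in the score, -1.94 at 5 CPM and at 20 CPM over all microglia, -0.050 in Cxcl10-led cells and -3.22 in the rest. Over the 22 settings the effector median stayed between 1.75 and 2.12 and the chemokine median between 1.07 and 1.63. Of the 12 list medians only the class II one changed sign over these settings.

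Leaving out cells with 2 or more markers of any other class left 37 microglia with 1 member and gave no value. No paired analysis was possible because each condition is 1 library. Genes with a mean of the 2 CPM under 20 were not compared.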

Other observations

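Further groups of genes were read in the interferon-high microglia. Of 15 cell death genes compared 2 were higher by 2-fold or more, beside 4.55% of all genes compared, Casp4, an inflammatory caspase, at 93.7 against 22.6 CPM and the histone chaperone adaptor Daxx at 134 against 33.7, with a list median of 0.43. The inflammasome adaptor Pycard stood at 476 against 409 CPM, the survival genes Mcl1 at 359 against 267 and Bcl2a1b at 309.7 against 283, and the death effectors Bax at 125 against 143 and Bak1 at 27.4 against 29.97. The 5 endothelial markers summed to 84.6 against 47.0 CPM, and 50.4% of members and 30.6% of the others had a UMI of at least 1 of them. Flt1, the most abundant, stood at 43.4 against 36.2 CPM. Kdr, a receptor for vascular growth factor, stood at 36.0 against 4.58 CPM in 38 members and passed the filter on low values only through the members, while Cldn5 and Cdh5, which define endothelial cells, had 0 UMIs in the members. In the 67 strict cells Kdr stood at 40.9 against 4.86 CPM.

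Other cell classes of the 14 dpi library were put to the same threshold of 3000 CPM, at lower median depths. It took 71 of 996 T/NK-like cells, or 7.13% (95% interval 5.61 to 8.91%), 97 of 832 monocyte-like cells, or 11.7% (9.56 to 14.0%), 128 of 1507 neutrophil-like cells, or 8.49% (7.13 to 10.02%), 5 of 61 border-macrophage-like cells, or 8.197% (2.72 to 18.1%), 2 of 44 dendritic-like cells, or 4.55% (0.555 to 15.5%), and 4 of 524 B-cell-like cells, or 0.763% (0.208 to 1.94%), beside 1.87% (1.45 to 2.36%) of the 3592 cells called microglia by the strict check. Cxcl10 over whole classes stood at 49.1 CPM in these microglia, 296 in dendritic-like, 105 in T/NK-like, 76.9 in border-macrophage-like, 26.2 in monocyte-like and 11.9 in neutrophil-like cells. Ccl12 stood at 398 CPM in the microglia, 1011 in 61 border-macrophage-like cells and 11.5 in monocyte-like cells, and Cxcr3, the receptor for Cxcl10, at 146 CPM in T/NK-like cells against 1.81 in the microglia.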
